A study of Saccharomyces cerevisiae with 8 samples.

Results

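The genes described here are 10 components of the yeast pheromone response, GPA1, STE4, STE18, STE5, STE7, STE12, FUS3, FAR1, FUS1 and AGA1, chosen by name as every probe set that named exactly 1 of them in the platform annotation. They were covered by 12 of the 9275 probe sets other than controls, and are 10 of the 5656 genes named on the array. RNA was measured in 4 strains of Saccharomyces cerevisiae on 2 Affymetrix arrays each: wild type, a mutant of the gene for Not1 called not1-2, a mutant in spt3, and the double mutant not1-2 spt3. All 4 strains were grown for 24 h at 30°C in rich glucose medium, moved at an optical density of 0.2 to 37.5°C, the restrictive temperature, and collected at 0.8. The labels name no mating type, no background strain and no pheromone treatment, and do not say what not1-2 or spt3 alters. The deposited values are signal intensities, and a probe set's signal is given below after each array was centred on its median.

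Haploid yeast cells are of mating type a or alpha, and each secretes a pheromone that binds a receptor on the other. The receptor releases the beta-gamma subunits of a G protein, a scaffold then gathers a cascade of protein kinases, and the last kinase activates the transcription factor Ste12 and the cell cycle inhibitor Far1. Ste12 in turn raises genes for adhesion and cell fusion. The receptors and pheromones differ between the mating types, while the G protein, the kinases and Ste12 are used by both, and many of them are switched off in a/alpha diploids. Not1 (gene CDC39) is the core of Ccr4-Not, which shortens mRNA tails and affects transcription, and Spt3 belongs to the coactivator SAGA, and the design sets each mutation alone beside both together.

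SPT3 itself was measured at 25.3 and 15.5 in wild type. Its not1-2 values were 29.9 and 22.8, and all 4 arrays of the spt3 strains stood at 1.72, the floor to which low signals were set. The reference differed from the mutants in mating-type genes. The summed signal of the 7 a-specific genes was between 2717 and 9339 on the wild-type arrays and between 43.4 and 101 on the 6 mutant arrays. The summed signal of 5 alpha-specific genes ran the other way, from 171 to 205 in wild type against 1240.0 to 3156 in the mutants. Each comparison with wild type therefore also sets an a-type against an alpha-type expression pattern, and the parts of mutation and mating type cannot be told apart there. The 11 haploid-specific genes, 7 of which are among the 10 members, were above the floor on all 8 arrays. Of 4 meiotic genes, IME1 (17.1 to 61.6) and IME2 (3.03 to 7.21) were above the floor on all 8 as well, SPO13 was at it on 4 arrays and SPO11 on 7. In a culture, fewer cells of a type and less RNA per cell cannot be told apart.

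Arrays of spt3 and of the double mutant stood apart within their strains. Over the 144 measured genes of chromosome III, the median signal on spt3 replicate 1 was 1.97-fold that on spt3 replicate 2, and 86.1% of the genes were higher. On not1-2 spt3 replicate 2 the median was 1.99-fold that on replicate 1, and again 86.1% of the genes were higher. For the other 15 nuclear chromosomes, the median difference of replicate 2 minus replicate 1 ranged from -0.30 to -0.01 in spt3 and from -0.18 to 0.09 in the double mutant, on the log2 scale. In wild type and not1-2 chromosome III differed by -0.03 and 0.11. Whether the cells behind those 2 arrays carried more copies of chromosome III was not tested. Of the 10 members FUS1 alone lies on it, as its systematic name YCL027W records, and FUS1 is given below with and without these 2 arrays. CDC39 lies there too, and gave 55.3 and 34.7 in spt3 and 25.8 and 58.2 in the double mutant, against 18.04 and 23.3 in wild type; its not1-2 signals were 14.2 and 27.3.

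**Figure D1:**
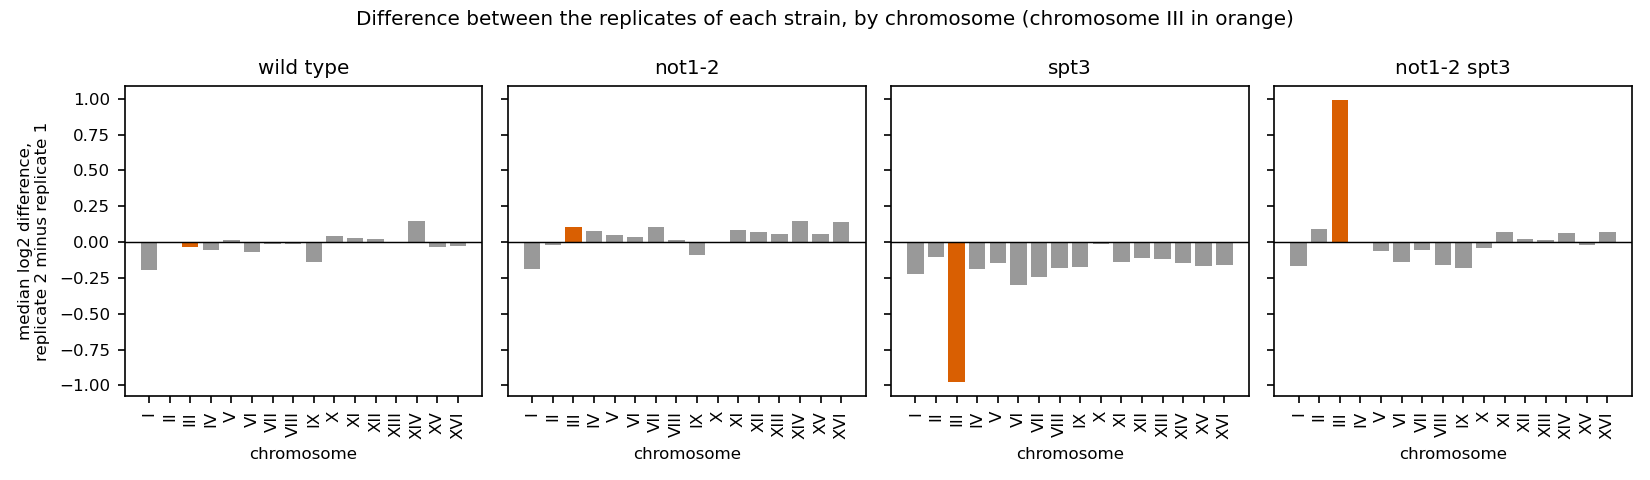
Median log2 difference between the replicate arrays of each strain (replicate 2 minus replicate 1), over the measured genes of each nuclear chromosome. Chromosome III, in orange, stands at -0.98 for spt3 and at 0.99 for the double mutant; all other bars lie between -0.30 and 0.15.

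RNA quality also differed by replicate number. The ACT1 control's ratio of 3' to 5' signal ran from 5.83 to 199 on replicate 1 arrays, and from 1.79 to 2.10 on replicate 2 arrays. Each comparison was therefore fitted with limma without the replicate number and with it as a block. All 10 members passed the filter on low signals, FUS3 through its 2 brighter probe sets.

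None of the 10 members passed the test in any of the 7 comparisons, in either fit. Of the 70 member differences, 0 had a limma adjusted p under 0.05. An unadjusted p under 0.05 was reached by 1 without the block and by 4 with it. Of all 7043 probe sets, 10 to 540 per comparison reached it without the block, and 46 to 1387 with it. The 1 without the block was in the double mutant against not1-2, where 536 probe sets reached it. The 4 with the block were in not1-2 against wild type (1262 probe sets), the double mutant against not1-2 (1308) and the interaction (714). The lowest adjusted p was 0.624 without the block and 0.0635 with it, both for AGA1 in the double mutant against not1-2. The background was low too: of all 7043 probe sets, 0.0426% passed in not1-2 against wild type, 0.0568% in spt3, 0.071% in the double mutant and 0.0994% in the mean of the 3 mutants, or 1.99%, 0.568%, 0.199% and 0.596% with the block. The double mutant had 0.0284% against not1-2, or 2.36% with the block, and 0% against spt3 in both fits, where 10 and 46 reached an unadjusted p under 0.05. The interaction of the mutations, the spt3 difference within not1-2 cells minus that within NOT1 cells, had 0% (246 probe sets at an unadjusted p under 0.05), or 0.0852% with the block. Against such shares a count of 0 among 10 genes is no result about the members.

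**Figure D2:**
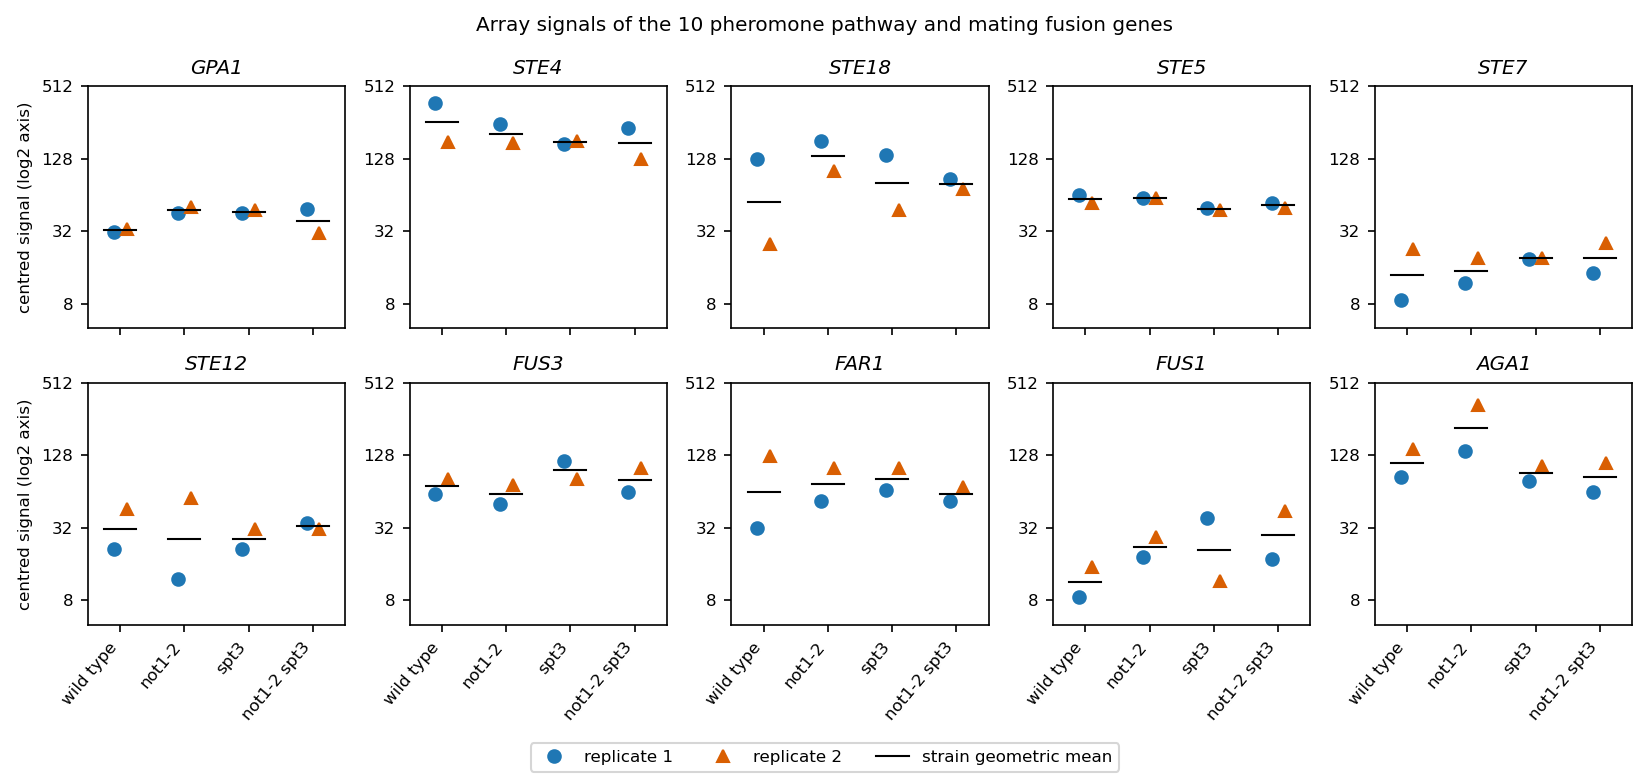
Centred array signal (log2 axis) of each of the 10 genes in the 4 strains; circles are replicate 1, triangles replicate 2 and bars the geometric mean of each strain. AGA1 has its highest strain mean in not1-2, FUS1 is spread widely within the spt3 strains, and STE5 lies between 47.8 and 64.4 on all 8 arrays.

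The G protein came first in the order of action. GPA1 encodes the alpha subunit, which holds the beta-gamma pair inactive until the receptor is bound. Its signals were 31.7 and 33.2 in wild type, then 44.9 and 51.1 in not1-2, 45.0 and 47.5 in spt3 and 48.8 and 31.0 in the double mutant. Both single mutants lay above both wild-type arrays, while the double mutant straddled them. The difference was 0.56 ± 0.35 (SE, log2, 2 against 2 arrays) in not1-2 and 0.51 ± 0.35 in spt3, with adjusted p of 0.782 and 0.864, so neither passed.

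STE4, the beta subunit that carries the signal onward, gave 373 and 177 in wild type, 248 and 171 in not1-2, 169.6 and 179 in spt3 and 228 and 128.1 in the double mutant. The highest value was wild-type replicate 1, and the other wild-type array lay among the mutants. The estimates in the mutants were -0.32 ± 0.48, -0.56 ± 0.48 and -0.59 ± 0.48, at adjusted p of 0.927, 0.866 and 0.959. Their SE was 0.34 with the block.

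STE18, the gamma subunit that anchors Ste4 to the membrane, gave 127 and 24.9 in wild type, 179 and 101 in not1-2, 137 and 47.7 in spt3 and 86.6 and 71.5 in the double mutant. It was the member whose replicates lay farthest apart: replicate 1 was higher in all 4 strains, by 1.24 on the log2 scale on average. Against wild type it stood at 1.26 ± 0.80 in not1-2 (adjusted p = 0.793). With the block the same difference had an SE of 0.46 and an adjusted p of 0.202, and 0.49 and 2.02 were its values in the replicate 1 and replicate 2 pairs. Leaving out the 2 arrays high on chromosome III from the blocked fit gave an adjusted p of 0.0342 for it, in a fit where 9.24% of all probe sets passed. STE18 did not do the same as its partner STE4 in the strain means, since STE4 lay below wild type in each mutant and STE18 above; no test compared the genes.

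SST2, which switches the alpha subunit off again, gave 27.0 and 60.5 in wild type, and its estimates in the 3 mutants ran from -0.56 to -0.14 with adjusted p of at least 0.959. Replicate 2 was higher than replicate 1 in all 4 strains, by 1.36 on average.

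Upstream of the G protein the picture was different, since receptors and pheromones set wild type apart. MFA2, a gene for a-factor, was at 4972 and 1448 in wild type, against signals between 7.44 and 17.98 in the mutants. MFA1, the other a-factor gene, gave 3999 and 737 against values from 1.72, the floor, to 34.5; its probe set is of a family type and may also read related sequence. The main alpha-factor gene MF(ALPHA)1 had wild-type signals of 14.9 and 17.1, and mutant signals from 534 to 1617. MF(ALPHA)2, the minor alpha-factor gene, gave 11.3 and 8.28 against values from 19.0 to 97.5. Each of these 4 genes separated wild type from the 6 mutant arrays without overlap, as 8.31% of all probe sets did.

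STE2, the receptor for alpha-factor that a cells carry, had wild-type signals of 24.9 and 126, and at most 5.15 in the mutants, at the floor on 1 array. It stood at -3.70 ± 0.70 in not1-2 and -4.61 ± 0.70 in spt3 with the block (adjusted p = 0.0396 and 0.0367), and at adjusted p of 0.294 and 0.228 without it. STE3, the receptor for a-factor on alpha cells, had wild-type signals of 16.0 and 19.2, and mutant signals from 65.1 to 174. It stood at 2.72 ± 0.42 and 2.42 ± 0.42 with the block (adjusted p = 0.0198 and 0.0489), and at 0.21 and 0.456 without it. With the block both receptor genes thus passed in not1-2 and spt3, while the 3 G protein genes did not. When the ACT1 ratio was added to the block, 0 of 7043 probe sets passed as higher in spt3 and 2 as lower. The STE3 call in spt3 was therefore lost in that fit. In the double mutant neither receptor gene passed with the block, at limma adjusted p of 0.055 and 0.065. No test compared the receptor genes with the G protein genes.

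The scaffold and the kinases follow the G protein. STE5, the scaffold that holds the kinases together, gave 64.4 and 54.8 in wild type, 60.5 and 59.8 in not1-2, 49.4 and 47.8 in spt3 and 55.3 and 50.1 in the double mutant. Its strain means spanned 0.31 on the log2 scale, the narrowest of the 10, against a median span of 0.71 over all probe sets tested. The spt3 arrays lay below both wild-type arrays, by -0.29 ± 0.31 (adjusted p = 0.866), and the 95% interval of that difference ran from -1.003 to 0.42. For not1-2 the interval was -0.69 to 0.73.

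STE7, the kinase that activates Fus3, gave 8.52 and 22.8 in wild type, 11.8 and 19.2 in not1-2, 18.6 and 19.3 in spt3 and 14.3 and 25.6 in the double mutant. Wild type held the lowest and the second highest of the 8 values, so each mutant overlapped it. The estimates were 0.11, 0.45 and 0.46, each ± 0.57 (0.37 with the block), at adjusted p of at least 0.88 without the block.

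FUS3, the kinase that acts last in the mating cascade, gave 60.7 and 81.6 in wild type, 50.9 and 73.1 in not1-2, 115 and 80.7 in spt3 and 63.8 and 101 in the double mutant. Each mutant overlapped wild type, while both spt3 arrays lay above both not1-2 arrays, a comparison that was not tested. The estimates against wild type were -0.21, 0.45 and 0.19, each ± 0.40 (0.36 with the block). Of its 3 probe sets the one used was the brightest; the second ran from 7.95 to 49.8 and was higher on replicate 2 in all 4 strains, by 1.72 on average against 0.27 for the first, and the last did not exceed 3.97. Its 2 brighter probe sets thus differed in how far the replicates lay apart.

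The other kinases showed no passing difference either. STE20, which starts the cascade, gave 38.4 and 62.5 in wild type, 35.4 and 39.97 in not1-2, 64.0 and 98.0 in spt3 and 81.8 and 62.9 in the double mutant. Both arrays of each spt3 strain lay above both wild-type arrays, yet the estimates of 0.69 ± 0.40 and 0.55 ± 0.40 had adjusted p of 0.864 and 0.959. STE11, between Ste20 and Ste7, stood at 0.27 to 0.33 in the mutants, and KSS1, a kinase related to Fus3 that also serves filamentous growth, at 0.06 to 0.15, with adjusted p of at least 0.866 and 0.945.

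STE12, the transcription factor, gave 21.3 and 45.9 in wild type, 11.97 and 56.4 in not1-2, 21.3 and 31.2 in spt3 and 34.8 and 31.5 in the double mutant. The not1-2 arrays held both the lowest and the highest value. Its estimates in the mutants were -0.27, -0.28 and 0.08, each ± 0.72 (0.49 with the block). In not1-2 the interval without the block ran from -1.93 to 1.40, so both a rise and a fall of 1 (log2) lay within it. The blocked interval ran from -1.38 to 0.85, which held a fall of 1 but not a rise of 1. DIG1 and DIG2, which encode inhibitors of Ste12, stood between -0.21 and 0.43, at adjusted p of at least 0.866.

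FAR1, which arrests the cell cycle and orients growth toward a partner, gave 31.96 and 127 in wild type, 53.2 and 101 in not1-2, 66.4 and 100.1 in spt3 and 53.3 and 70.2 in the double mutant. Replicate 2 was higher in all 4 strains, by 0.98 on the log2 scale on average, and the wild-type pair alone spanned all 6 mutant values. The estimates were 0.21, 0.36 and -0.06, each ± 0.66 (0.40 with the block). In the replicate 1 pairs every mutant lay above wild type, by 0.74 to 1.06, and in the replicate 2 pairs every mutant lay below it, by -0.32 to -0.85. The 3' to 5' ACT1 ratio of wild-type replicate 1 was 199. FAR1 did not pass when this ratio was added to the block, and the part of the ratio in these single pairs was not tested.

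FUS1 encodes a membrane protein needed for cell fusion and is a classic target of Ste12. It gave 8.59 and 15.2 in wild type, 18.3 and 26.9 in not1-2, 38.3 and 11.6 in spt3 and 17.6 and 44.3 in the double mutant. Both not1-2 and both double-mutant arrays lay above wild type, and 1 spt3 array lay between the wild-type values. The estimates were 0.96 ± 0.69 in not1-2 (adjusted p = 0.836), 0.88 ± 0.69 for spt3 (0.866) and 1.29 ± 0.69 for the double mutant (0.959).

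The high FUS1 values in the spt3 strains were those of the 2 arrays that were high across chromosome III. FUS1 was higher by 1.73 on spt3 replicate 1 than on replicate 2, and by 1.34 on not1-2 spt3 replicate 2 than on replicate 1, against chromosome medians of 0.98 and 0.99. Without these 2 arrays the FUS1 estimate was 0.02 ± 0.66 in spt3 and 0.62 ± 0.66 in the double mutant; with the block in addition it was -0.33 ± 0.47 and 0.96 ± 0.47. When the genes of chromosome III were instead centred on their own median on each array, it was 0.39 ± 0.47 in spt3, 0.83 ± 0.47 in the double mutant and 1.09 ± 0.47 in not1-2. FUS1 was past the test in 1 setting, the blocked fit without spt3 replicate 2, where the array high on chromosome III was the only one left in spt3: 2.20 ± 0.40 in spt3 against wild type (adjusted p = 0.0238) and 1.48 ± 0.27 in the mean of the 3 mutants (adjusted p = 0.0197). In that fit 9.75% and 8.53% of all probe sets passed in these comparisons, so that 1 of 10 members is near the background.

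AGA1 encodes the cell wall anchor to which the a-agglutinin subunit Aga2 is bound, and pheromone raises it in both mating types. It had the widest span of strain means of the 10, 1.35 on the log2 scale. Its signals were 83.6 and 143 in wild type, 138 and 332 in not1-2, 78.4 and 104 in spt3 and 63.3 and 111 in the double mutant. Within each replicate number not1-2 was the highest strain, and wild type the second highest. Against wild type AGA1 stood at -0.27 ± 0.53 in spt3, and at -0.09 and -0.46 in the replicate pairs. In the double mutant AGA1 stood at -0.39 ± 0.53 against wild type, and at -0.40 and -0.37 in the pairs. Neither difference passed in either fit.

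In not1-2 against wild type AGA1 stood at 0.97 ± 0.53 (adjusted p = 0.765), and at 0.72 and 1.21 in the replicate pairs; with the block the SE was 0.32 and the adjusted p 0.163. In the double mutant relative to not1-2 it stood at -1.35 ± 0.53, and at -1.12 and -1.59 in the replicate pairs, with no overlap between the arrays. That difference missed the threshold, at adjusted p of 0.624 and of 0.0635 with the block. The blocked 95% interval ran from -2.07 to -0.63. It passed when arrays were quantile normalized and the block was kept (-1.38, adjusted p = 0.0497) and in the blocked fit without spt3 replicate 1 or replicate 2 (adjusted p = 0.0316 and 0.0311); in those fits 2.37%, 6.12% and 6.16% of all probe sets passed. It had an adjusted p of 0.0707 without the 2 arrays high on chromosome III. The interaction was -1.08 ± 0.45 with the block, at adjusted p = 0.469.

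**Figure D3:**
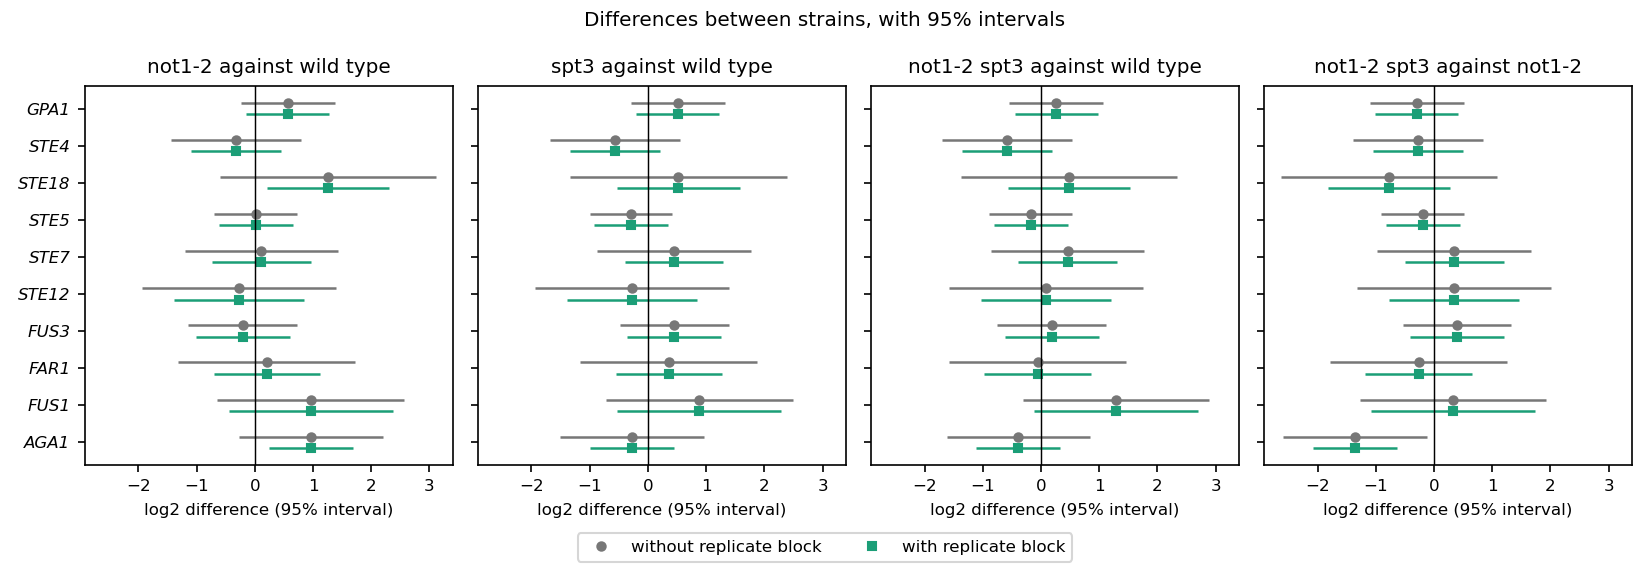
Log2 differences of the 10 genes in 4 comparisons, with 95% intervals from limma without the replicate number (grey circles) and with it as a block (green squares). The intervals of AGA1 in the double mutant against not1-2 lie below 0 in both fits, and no adjusted p passes 0.05.

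The adhesion and fusion genes beside the members were varied. AGA2, the adhesion subunit of a cells, had wild-type signals of 192 and 99.5, and mutant signals from 1.92 to 9.84. This partner of Aga1 fell by 4.20 in not1-2 (blocked adjusted p = 0.00319; 0.131 without the block), beside AGA1 at 0.97. SAG1, the alpha-agglutinin that binds it, gave 57.2 and 64.1 in wild type, 323 and 529.6 in not1-2, 147 and 123 in spt3 and 80.3 and 189 in the double mutant. SAG1 rose by 2.77 ± 0.39 in not1-2 with the block (adjusted p = 0.0136; 0.137 without it) and stood at 1.15 in spt3 and 1.03 in the double mutant, with blocked adjusted p of 0.19 and 0.279.

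PRM10, a pheromone-regulated membrane protein gene, gave 74.8 and 83.6 in wild type, 178 and 181 in not1-2, 66.3 and 58.8 in spt3 and 46.1 and 58.2 in the double mutant. The not1-2 arrays stood above the other 6. It fell by 1.79 ± 0.30 in the double mutant against not1-2 with the block (adjusted p = 0.0276; 0.136 without it), beside AGA1 at -1.35. Of the 19 measured adhesion and fusion genes, 14 lay below not1-2 in the double mutant, with a median of -0.27 against 0.06 over all probe sets, and PRM10 was the 1 that passed, with the block.

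BAR1, STE6 and AFB1 act on the pheromones themselves, and followed the mating-type pattern. BAR1, the protease that destroys alpha-factor, had wild-type signals of 105 and 221, and reached at most 20.9 in the mutants. It fell by 4.01 ± 0.45 in the double mutant (adjusted p = 0.0403 without the block). STE6, the exporter of a-factor, gave 22.5 and 75.7 against at most 9.55, and fell by 2.28 ± 0.43 in not1-2 with the block (adjusted p = 0.0378). AFB1, which blocks a-factor in alpha cells, gave 71.8 and 96.1 against values from 358 to 787, and rose by 3.18 ± 0.41 in not1-2 with the block (adjusted p = 0.00968). None of these 3 passed in the double mutant against not1-2.

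**Figure D4:**
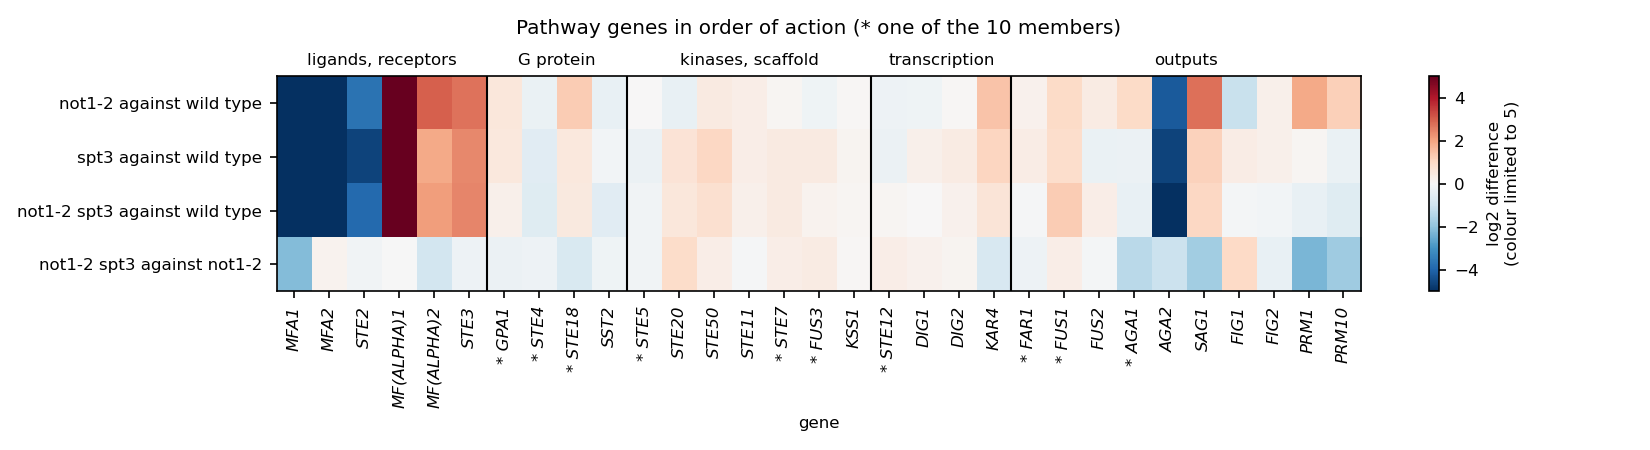
Log2 differences (fit without the replicate number) of pathway genes set out from ligands to outputs, with an asterisk before each of the 10 members; red is higher and blue lower, with colour limited to 5. Most strong colours lie with the ligands, the receptors, AGA2 and SAG1, and the members between them stay within -1.35 and 1.29. The output gene PRM1, which passed in neither fit, spans 2.28 between its strain means, highest in not1-2 and lowest in the double mutant.

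The medians of the 10 members were set beside those of all probe sets. Their median difference against wild type was 0.16 in not1-2 beside -0.08 over all probe sets, 0.40 in spt3 beside -0.02, and 0.13 in not1-2 spt3 beside -0.05. Between the double mutant and not1-2 it was -0.23 beside 0.06, and between the double mutant and spt3 -0.03 beside -0.04. In not1-2, 7 of 10 lay above wild type, where 44.4% of all probe sets did, in spt3 6 of 10 where 48.4% did, and in the double mutant 6 of 10 where 46.8% did. These 3 comparisons share the wild-type arrays.

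Members whose arrays did not overlap between strains were counted beside the share among all probe sets. With so few genes these counts are no result about the members, and no test compared the shares. In not1-2 against wild type there were 2, GPA1 and FUS1, both higher, where 32.1% of all probe sets did not overlap. In spt3 there were 2, GPA1 higher and STE5 lower, where 31.9% did not, and in the double mutant FUS1 alone, where 25.7% did not. Between the double mutant and not1-2 there were 3, STE18, STE5 and AGA1, all lower, where 38.2% did not overlap, and against spt3 2, STE12 and STE5, both higher, where 12% did not. No member separated wild type from all 6 mutant arrays.

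By their medians the members spanned less between strains, and more between replicates, than all probe sets. The median span of their strain means was 0.58 on the log2 scale, against 0.71 over all probe sets, and 7 of the 10 lay below that 0.71. The median absolute difference between replicate numbers, averaged over strains, was 0.67 for the members and 0.48 for all. AGA1, FAR1 and STE7 were higher on replicate 2 in all 4 strains, and STE18 and STE5 lower in all 4. The ACT1 ratio moved with the replicate number. Strains were also compared in a blocked fit that held this ratio, and no member passed in it. The part of the ratio in these replicate differences was not tested.

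The other pathway genes were those outside the members and not specific to 1 mating type. Of 47 listed 45 were measured, and their median against wild type was 0.07 for not1-2, 0.15 for spt3 and 0.12 for the double mutant. In the fit without the block 0 of the 45 passed in any comparison, with 5, 1 and 1 at an unadjusted p under 0.05 against wild type. With the block PRM10 passed in the double mutant against not1-2 and 0 did elsewhere. Of the 7 a-specific genes 1, 1 and 2 passed and fell without the block in not1-2, spt3 and the double mutant, and 1 of 5 alpha-specific genes rose in each. With the block 6 of the a-specific genes passed and fell in not1-2, 5 for spt3 and 4 for the double mutant, and of 5 alpha-specific genes 4, 3 and 1 rose. The spt3 counts of 5 and 3 did not hold when the ACT1 ratio was added to the block. There 2 of all 7043 probe sets passed as lower in spt3, and 0 as higher.

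The genes whose signals followed AGA1 most closely over the 8 arrays were PCA1, a cadmium transporter (Pearson r = 0.99), AQY2, an aquaporin (0.98), LYS14, an activator of lysine synthesis (0.98), MCH4, related to monocarboxylate carriers (0.97), and YPC1, a ceramidase (0.96). PCA1 gave 19.9 and 44.0 in not1-2 and between 10.5 and 18.1 elsewhere. AQY2 gave 60.8 and 294 in not1-2 and between 22.0 and 99.9 elsewhere. These arrays share the difference between replicate numbers, which enters each r. Among the members FAR1 followed AGA1 best (0.55), and the remaining 8 ran from -0.29 to 0.43.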

How the data were processed

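Biotin-labelled polyA RNA was hybridised to Affymetrix arrays, per the labels. The deposited intensities are linear, 1 per probe set and array, and no source used here names the software behind them. Of 9335 probe sets 60 controls were left out. Of the rest 6504 named 1 gene, 328 several and 2443 none; symbols were updated through gene identifiers to assembly R64 (all 6504 matched), which also gave chromosomes. Array medians differed by 0.419 (log2), so every array was divided by its own median and set to the common level. Signals below the 10th percentile, 1.72, were set to it before log2. Probe sets with a strain mean above the 25th percentile, 6.99, were kept (7509), and the brightest stood for each gene, which left 7043.

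Strain means over all 8 arrays were fitted with limma 3.58.1 (R 4.3.3) with an intensity trend, 7 comparisons, and Benjamini-Hochberg adjustment over 7043 probe sets at 0.05; SEs and 95% intervals are moderated. The fits were checked on simulated data with large changes, equal noise for every probe set and no replicate or chromosome effect. That check does not show how they perform on spreads like those of these arrays. Nothing states that replicates came from different cultures, so the p-values reflect array-to-array spread, which may be technical in part. Within strains the arrays differed in ACT1 ratio, and in both spt3 strains over chromosome III. Residuals of same-numbered arrays correlated in all 6 strain pairs (r from 0.188 to 0.739), so they are treated as pairs, and blocked values stand where they change a call or count. Array number, 2 per strain, limits the precision; the median SE of a difference was 0.486.

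The members and gene lists were chosen with earlier results of these data known. Named beside the members are pheromones, receptors, STE20, STE11, KSS1, SST2, DIG1, DIG2, any listed gene that passed in either fit, and the 5 most correlated with the member of widest span. SPO11 is a listed marker. SPT3, CDC39, PRM1 and genes of chromosome III were named after their values were seen. Alternatives changed scaling, floor, filter, trend, arrays, the block and the ACT1 ratio. No genome or protein sequence was used here.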

Additional observations from a re-analysis of the deposited data

Results flagged for a closer look

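The pheromone genes MFA1, MFA2 and MF(ALPHA)1 passed the interaction test with the replicate block: the spt3 difference within not1-2 cells differed from that within NOT1 cells. The interaction was 6.85 ± 0.54 for MFA1 and 8.41 ± 0.62 for MFA2 (adjusted p = 0.00176 each), and -6.25 ± 0.69 for MF(ALPHA)1 (adjusted p = 0.0187). Without the block the adjusted p values were 0.86, 0.0631 and 0.184. For all 3 genes wild type is the strain that stands apart, and wild type also differs from the other 3 strains in mating-type expression; the parts of the mutations and of mating type cannot be told apart.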

How the results depend on the processing

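The count of members past the test was 0 in each of the 7 comparisons without the block, and stayed at 0 in 216 of 222 recomputed counts. With the replicate block it was 0 in all 7. It became 1 in these cases: AGA1 in the double mutant against not1-2 (blocked fit with quantile normalization, or without either spt3 array), FUS1 in spt3 and in the mean of the mutants (blocked fit without spt3 replicate 2), and STE18 in not1-2 against wild type (blocked fit without the 2 arrays high on chromosome III). Leave-one-out counts of members ran from 0 to 1; these fits take a strain left with 1 array to vary as other strains do. With quantile normalization and the block, 2.37% of all probe sets passed in that comparison, and the shares in the other fits stand above beside each call. A count of 1 among 10 genes is no result about the members. The blocked fits with quantile normalization or no centring, and the settings on chromosome III, were chosen after seeing the data. Of 2220 recomputed member differences 181 changed sign, none of them past the test in either setting; the largest of these was FUS1 in spt3, at 0.88.

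Counts over all probe sets moved more. For not1-2 against wild type 3 passed without the block and 140 with it, for spt3 4 and 40, for the double mutant 5 and 14, between the double mutant and not1-2 2 and 166, in the mean of the mutants 7 and 42, and in the interaction 0 and 6. Without one array, blocked counts ran from 3 to 310 for not1-2, from 5 to 687 for spt3, from 4 to 160 for the double mutant and from 0 to 434 in the double mutant against not1-2. When the ACT1 ratio was added to the block, with all 8 arrays, 74 passed for not1-2, 2 for spt3 and 6 for the double mutant. In that fit 84 passed between the double mutant and not1-2, 6 in the mean of the mutants and 2 in the interaction. The cause of these shifts was not tested. Arrays carry no read depth, and the deposited values hold no detection call, so low signals such as those of FUS1 and STE7 have no stated background.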

Other observations

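Of 4 other listed mating genes on chromosome III, 3 were higher, as FUS1 was, on both arrays that stood apart, and FIG2 on 1 of them. STE50, an adaptor of the Ste11 kinase, gave 38.6 and 14.9 in spt3 and 8.41 and 48.9 in the double mutant. RVS161, which acts in cell fusion and endocytosis, gave 573 and 218 in spt3 and 181 and 519 in the double mutant. KAR4, a transcription factor for nuclear fusion genes, gave 32.8 and 20.3 in spt3 and 8.42 and 43.7 in the double mutant. FIG2, a cell wall adhesin, gave 5.16 and 46.0 in the double mutant but 19.1 and 21.6 in spt3, where the array high on chromosome III was not the higher one. These genes were named after their values were seen.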
